A study of Mus musculus with 6 samples.

Results

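Club cells, the secretory cells of the airway lining, were set against basal and ciliated cells together, to find the genes in which club cells stood apart from both nonsecretory types. A gene followed this contrast when both club arrays lay above, or both lay below, all 4 other arrays. Of 20315 genes, 2194 followed it upward and 3094 downward. The study measured RNA from the surface airway epithelium of C57BL/6 mice on 6 microarrays, 2 each of basal, ciliated and club cells sorted by flow cytometry. Every gate took EpCAM-positive cells. The club gate in addition took cells that carry SSEA1, a fucosylated sugar epitope. The basal gate took cells that bind the lectin GSIβ4, and the ciliated gate took GSIβ4-negative cells with CD24. No genotype, treatment or age is given for the groups, and the gates were not stated to exclude other EpCAM-positive cells. The labels call the 2 arrays of a type biological replicates without naming the animals, so that p-values measure the spread between these samples only.

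Club cells coat the airway with secretoglobins, mucins and antimicrobial proteins, detoxify inhaled compounds with cytochrome P450 and other enzymes, and can renew themselves and give rise to ciliated cells. Basal cells sit on the basement membrane and act as stem cells, while ciliated cells move the mucus with motile cilia. Notch signalling between neighbouring cells favours the secretory over the ciliated fate in this tissue. All levels below are RMA values on a log2 scale, so that 1 unit is a 2-fold difference of the measured signal. The deposited values carry no detection calls, so a low level is not shown to be absence. In sorted cells measured in bulk, fewer cells of a type and less RNA per cell cannot be told apart.

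The 3 secretory genes Pigr, Muc5b and Cxcl15 were markers given with the contrast. Their club-high levels illustrate the label and do not test it. Pigr, the receptor that carries immunoglobulin A across the epithelium, stood at 12.57 and 12.69 in the club arrays, at 10.57 and 10.23 in the ciliated arrays and at 7.97 and 8.06 in the basal arrays. Muc5b, the gel-forming mucin of healthy airways, was at 13.25 and 13.68 in club, 11.57 and 10.72 in ciliated and 7.73 and 9.14 in basal arrays. For both genes the club arrays were the highest and the ciliated arrays came between them and the basal arrays, with no overlap. The common club cell genes Scgb1a1, the main club secretoglobin, and Cyp2f2, a club cell cytochrome P450, were looked up after other values were seen. Cyp2f2 was not called higher than each of the other types. Scgb1a1 reached 14.31 and 13.98 in club arrays but also 14.20 and 13.87 in ciliated and 13.05 and 13.02 in basal arrays. It did not pass (0.61 ± 0.16, limma adjusted p = 0.054). Its club and ciliated values lay near the highest of any gene on those arrays, 14.413 to 14.537. Whether the signal was compressed there was not tested. Of the 20 club markers, 10 were called higher in club cells than in the mean of the other types, beside 5.54 percent of all genes. The sort itself was traceable in Fut9, whose enzyme makes the SSEA1 sugar: it stood at 7.68 and 7.23 in club arrays, 5.26 and 5.35 in ciliated and 4.75 and 4.62 in basal arrays, which checks the gate and is no finding.

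Far more genes were club-high than club-low once each type had to be passed separately. Against the mean of basal and ciliated cells, limma called 2402 genes at an adjusted p under 0.05, which is 11.8 percent of those tested, 1125 higher (5.54 percent) and 1277 lower (6.29 percent) in club cells. Of these, 845 did not follow the contrast, and 716 of the 845 were on the lower side. When club cells had to differ from basal and from ciliated cells in the same direction, 574 genes were called (2.83 percent), 459 higher (2.26 percent) and 115 lower (0.566 percent) in club cells. All further counts of genes called against each type use this last definition. By size, 299 of the 459 and 60 of the 115 differed from the nearer type by at least 1 log2 unit, and 82 and 10 by at least 2. The nearer type was ciliated in 250 and basal in 209 of the club-high genes, and ciliated in 55 and basal in 60 of the club-low genes. These counts depended on single arrays. The 574 became 902 without basal replicate 1, and 289, 286, 288 and 316 without ciliated replicate 1, ciliated replicate 2, club replicate 1 and club replicate 2. The 2402 became 1468, 1400, 1148 and 1288 without these last 4 arrays.

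The balance between directions depended on scaling, and on the level of the genes, for the looser definitions. Of the genes that followed the contrast, 41.5 percent were higher in club cells as deposited, 53.0 percent after quantile normalization was applied again, 53.1 percent after cyclic loess and 63.0 percent after each array was centred on its median. Of the genes called against the mean, 46.8 percent were higher as deposited. That share was 48.7 percent after quantile normalization again, 46.3 percent after cyclic loess and 57.2 percent after centring. Of the genes called against each type, 80.0 percent were higher as deposited and 78.4 to 85.7 percent under these scalings. The median difference over all genes was -0.0632 log2 units as deposited and 0.019 after centring. Among the genes above the median mean level, without rescaling, 58.7 percent of those following the contrast were higher in club cells. Of those called against the mean there, 52.7 percent were higher, and of those called against each type 79.4 percent.

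**Figure D1:**
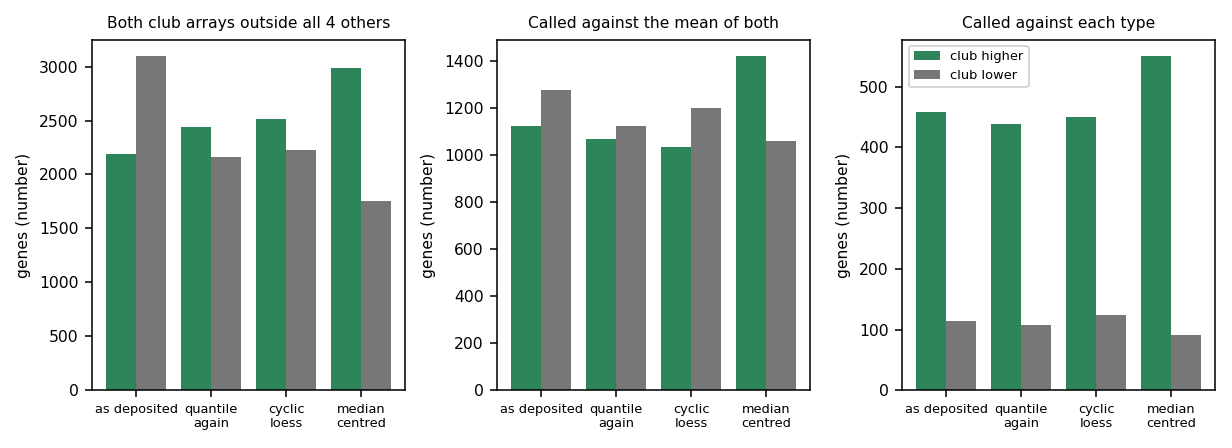
Number of genes (vertical axes) higher (green) or lower (grey) in club cells under 4 scalings of the arrays, for genes whose club arrays lie outside all 4 others (left), genes called by limma against the mean of both other types (middle) and genes called against each type (right). The excess of higher genes on the right, 459 against 115 as deposited, is present under each scaling shown, while the left panel turns from 2194 against 3094 as deposited to 2990 against 1754 after centring.

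The gap of a gene is the difference between its club mean and the mean of the nearer other type. The 20 widest gaps in each direction were taken among genes that followed the contrast and were called against each type. Non-overlap was thus a condition of entry to the 20. Among the 20 club-high genes with the widest gaps were Cxcl15, Sult1c1 and St8sia6. Cxcl15, a chemokine of mouse lung that attracts neutrophils, stood at 11.29 and 11.14 in the club arrays, 7.98 and 7.10 in the ciliated arrays and 6.34 and 5.59 in the basal arrays. Sult1c1, a cytosolic sulfotransferase, stood at 10.69 and 10.80 in club, 7.23 and 7.02 in ciliated and 4.77 and 5.52 in basal arrays. St8sia6, a sialyltransferase that adds sialic acid to sialic acid, stood at 10.99 and 10.70 in club, 7.16 and 7.11 in ciliated and 6.08 and 6.79 in basal arrays. In all 3 genes the ciliated arrays lay above the basal ones. Against the nearer type the differences amounted to 12.8-fold for Cxcl15, 12.3-fold for Sult1c1 and 13.1-fold for St8sia6. The limma adjusted p against the mean was 0.00031 for Cxcl15 and 0.00022 for the other two. Sult1c1 and its paralog Sult1c2 are alike in sequence, and whether their probes keep them apart was not tested: Sult1c2 was also high in club arrays, at 8.31 and 8.56, against 5.16 to 6.28 in the others.

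Sftpa1, a surfactant collectin that binds microbes, stood at 12.76 and 13.09 in club arrays, 10.06 and 9.77 in ciliated arrays and 8.97 and 9.30 in basal arrays. The 300-base windows at the starts of Cxcl15, Sult1c1 and Sftpa1 are shown because these genes combine a wide gap with a matched start site. They are RefSeq sequences on mouse assembly GRCm38.p6, from 250 bases before to 50 bases after the start, on the gene's own strand, with each match of TATAAA, the core of a TATA box, or of TGGGAA, the core bound by the Notch cofactor RBPJ, in capitals on either strand. They lie at chr5:90794284-90794583 on the plus strand for Cxcl15, chr17:53990582-53990881 on the minus strand for Sult1c1 and chr14:41131538-41131837 on the plus strand for Sftpa1.
Cxcl15: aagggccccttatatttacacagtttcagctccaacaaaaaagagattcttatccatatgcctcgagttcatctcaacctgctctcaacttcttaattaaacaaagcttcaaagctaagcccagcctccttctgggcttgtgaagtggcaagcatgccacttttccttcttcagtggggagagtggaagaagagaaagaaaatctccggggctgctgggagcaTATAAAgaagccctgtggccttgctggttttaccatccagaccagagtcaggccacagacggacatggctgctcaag
Sult1c1: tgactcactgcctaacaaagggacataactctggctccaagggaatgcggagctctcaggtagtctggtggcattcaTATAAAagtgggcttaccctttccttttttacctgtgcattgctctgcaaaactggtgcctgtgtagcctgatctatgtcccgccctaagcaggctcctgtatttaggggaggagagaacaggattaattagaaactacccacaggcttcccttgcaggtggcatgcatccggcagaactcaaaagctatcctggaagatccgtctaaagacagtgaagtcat
Sftpa1: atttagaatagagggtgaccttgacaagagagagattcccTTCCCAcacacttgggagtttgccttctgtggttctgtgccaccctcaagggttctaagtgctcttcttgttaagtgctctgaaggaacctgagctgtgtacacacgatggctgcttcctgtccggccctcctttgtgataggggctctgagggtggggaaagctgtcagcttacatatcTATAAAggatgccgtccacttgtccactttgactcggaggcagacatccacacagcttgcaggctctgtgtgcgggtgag
The TATAAA match began 27 bases before the start in Cxcl15, 173 before it in Sult1c1 and 30 before it in Sftpa1. Sftpa1 also held TGGGAA on the reverse strand, 210 bases before the start. Among all genes of the table with a window, 12.1 percent of 15128 held TATAAA on either strand, beside 10.4 percent of 326 club-high genes, 10.8 percent of 83 club-low genes and 4 of the 13 widest club-high genes with a window. TTGCNNAA, the core of the C/EBP site, was in 9.7 percent of all windows, 13.5 percent of the club-high and 12 percent of the club-low windows. The NF-kB consensus, which can overlap TGGGAA, was in 9.28, 11 and 9.64 percent. A match is a description of letters, and a window without one says only that these letters are not there.

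Several further genes among the 20 widest were close to 1 level in basal and ciliated cells and high in club cells. Slc6a15, a neutral amino acid transporter, stood at 10.18 and 10.30 in club arrays and between 6.33 and 6.94 in the other 4. Elf5, an ETS transcription factor of secretory epithelia such as the mammary gland, stood at 9.49 and 9.41 in club arrays and between 5.79 and 6.46 in the other 4. Krt23, an epithelial keratin, stood at 11.88 and 12.59 against 8.61 to 9.87. The limma adjusted p was 0.00022, 0.00022 and 0.0022 in these 3 genes. Akr1c18, a progesterone-reducing dehydrogenase, and the carboxylesterase Ces1f shared this shape, at 12.94 and 12.73 and at 10.46 and 10.04 in club arrays. Ces1f belongs to a cluster of near-identical carboxylesterase genes, so part of its signal could come from a relative.

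The rest of the 20 covered varied functions. Atp13a5, a transport ATPase, had the steadiest values, at 10.72 and 10.77 in club, 7.22 and 7.06 in ciliated and 6.32 and 6.32 in basal arrays (4.01 ± 0.13, adjusted p = 0.00011). Gfpt2, which feeds sugars into the pathway that makes donors for glycosylation, stood at 10.21 and 10.26 in club arrays and at most at 7.67 elsewhere. Lox, which cross-links collagen and elastin, stood at 9.71 and 10.14 in club, 6.31 and 6.27 in ciliated and 7.53 and 6.95 in basal arrays, and was thus lowest in ciliated cells. Cd38, an enzyme that consumes NAD, stood at 9.55 and 9.11 against 6.04 to 6.60. Tas2r135, of the bitter taste receptor family, was high but uneven, at 9.63 and 8.13 in club and 5.27 to 7.13 elsewhere. Its call (adjusted p = 0.016) was lost without ciliated replicate 1 (0.068), ciliated replicate 2 (0.073) or club replicate 1 (0.11), and that of the cadherin Cdh17 (0.0062) without club replicate 2 (0.052). The 20 differed from the nearer type by 6.32-fold to 13.1-fold. With basal and ciliated arrays treated as 1 group, which puts their own difference into the spread, 18 of the 40 widest genes of both directions were not called. AW551984, an unnamed transcript passed over by the rule for naming genes, stood at 9.87 and 9.65 in club arrays and between 5.59 and 6.36 in the others, an 11.6-fold gap.

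**Figure D2:**
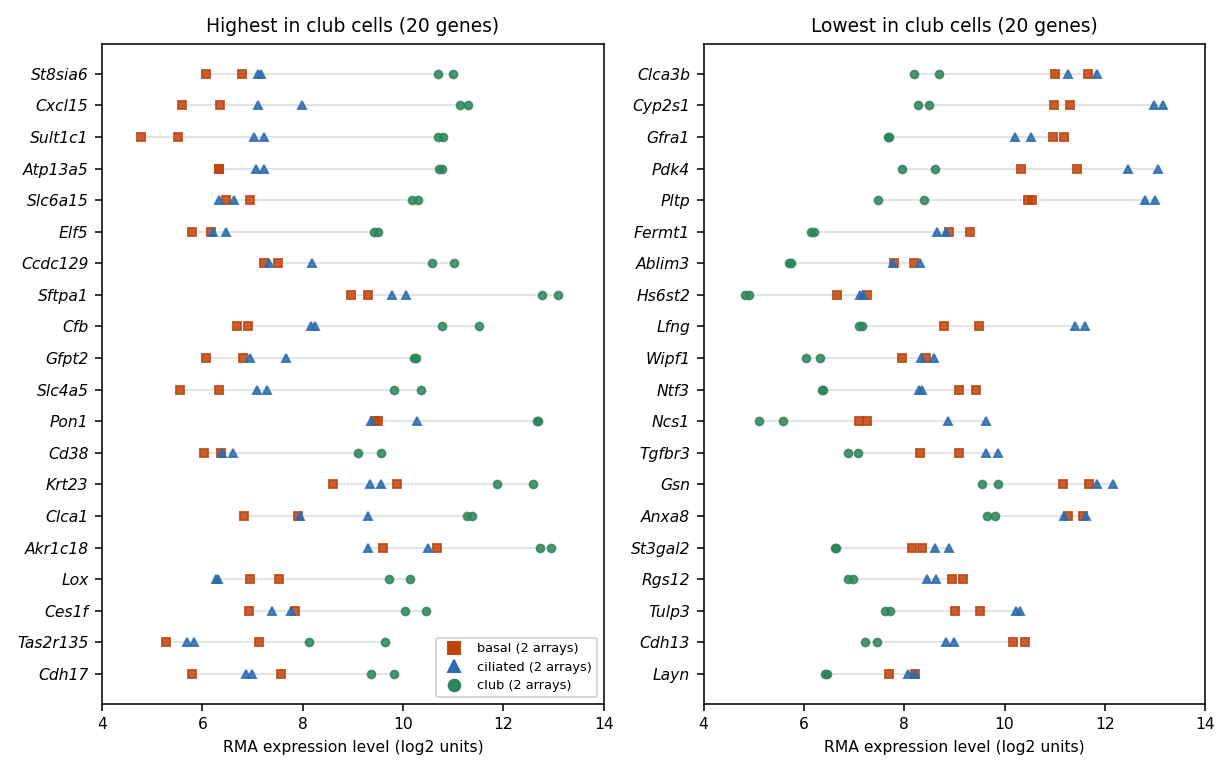
RMA expression level in log2 units (horizontal axes) of the 20 genes with the widest gap between club cells and the nearer other type in each direction, with 1 point per array (green circles club, orange squares basal, blue triangles ciliated). The club points lie clear of all other points in each row because only such genes were eligible. The difference of means from the nearer type is 2.66 to 3.71 for the higher and -1.52 to -2.90 for the lower genes. Club points come closest to another array in Tas2r135, at 8.13 against 7.13.

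Mucus and defence proteins gave the largest positive medians among the 26 lists drawn in the plot of list members. The median of 19 measured genes of mucins and mucin assembly was 1.56, beside -0.0632 for all genes. Of the 19, 8 were called higher against each type, beside 2.26 percent of all genes. Besides Muc5b these were Clca1, a secreted protease that shapes mucus, at 11.27 and 11.38 in club arrays against 6.82 to 9.29, and the membrane mucins Muc20 and Muc16. For Muc16 the ciliated arrays came between the other types, at 9.84 and 9.61, with 10.83 and 10.68 in club and 7.33 and 7.58 in basal arrays. Named after their values were seen, the remaining 4 were the mucin Muc5ac, at 8.11 and 8.71 against 6.09 to 6.81, the membrane mucin Muc1, the mucin-folding enzyme Agr2 and the trefoil factor Tff2. Agr3, a relative of Agr2, went the other way: it stood at 11.83 and 11.42 in ciliated, 6.35 and 6.26 in club and 4.07 and 5.07 in basal arrays.

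Of 25 mucosal defence genes, 15 were called higher and 4 lower than the mean, beside 5.54 and 6.29 percent of all genes. Against each type, 7 were called higher and none lower, beside 2.26 and 0.566 percent, and the list's median was 1.33. The lowest of the 4, the beta-defensin Defb1, named after its values were seen, was basal-high, at 10.77 and 11.29 in basal, 5.98 and 5.64 in club and 5.77 and 5.51 in ciliated arrays. Lcn2, a lipocalin that withholds iron from bacteria, stood at 11.02 and 11.83 in club arrays against 6.72 to 9.51. Lysozyme Lyz1, the collectin Sftpd and the chitinase-like Chil1, named after their values were seen, were higher than in the nearer type by 3.41-fold, 2.88-fold and 5.37-fold. The scavenger receptor Dmbt1 stood at 12.33 and 12.71 in club arrays but at 9.60 and 6.56 in basal arrays, and its call against the mean (adjusted p = 0.017) was lost without any 1 of the ciliated or club arrays (0.058 to 0.1). Bpifb1, a BPI-fold protein of airway mucus, was as uneven in basal cells, at 7.33 and 10.57, against 13.74 and 13.98 in club arrays. Its call (adjusted p = 0.034) was likewise lost without any 1 of these 4 arrays (0.097 to 0.16). Among 16 secretoglobins and BPI-fold genes, 2 were called higher against each type, Bpifb5 at 8.60 and 8.81 against 6.50 to 7.01 and Scgb3a2 at 11.69 and 11.36 against 9.77 to 10.08, and the list's median was 0.00269.

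Complement and chemokine genes rose in a few members while most did not pass. Of 20 complement genes, 4 were called higher against each type, beside 2.26 percent of all genes. The same share stands beside the chemokine and lipid lists below. Cfb, the protease of the alternative pathway, stood at 10.78 and 11.52 in club, 8.25 and 8.17 in ciliated and 6.68 and 6.91 in basal arrays. C3, the central component, stood at 12.51 and 12.81 in club arrays, with 11.55 and 11.04 in basal and 10.62 and 9.89 in ciliated arrays, and the chaperone-like Clu was also higher. So C3 was lowest in ciliated cells, while Cfb was lowest in basal cells. Of 32 chemokine and cytokine ligands, 7 were called higher against each type, with a list median of 0.0651. The neutrophil attractants Cxcl2 (9.25 and 8.94 against 5.05 to 7.08) and Cxcl5 (7.53 and 9.25 against 4.95 to 6.09) were among them, the second with club arrays far apart. Il6, an acute-phase cytokine, stood at 5.75 and 5.95 in club arrays, against 3.63 to 4.31. Il33, an alarmin named after its values were seen, stood at 7.36 and 7.90 in club, 6.55 and 6.69 in ciliated and 5.09 and 5.02 in basal arrays. Of 36 lipid mediator and fatty acid genes, 3 were called higher against each type: the lipoxygenase Alox15, at 10.83 and 11.54 against 6.57 to 8.81, and, named after their values were seen, the prostaglandin reductase Ptgr1 and the acyl-CoA synthetase Acsl1.

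**Figure D3:**
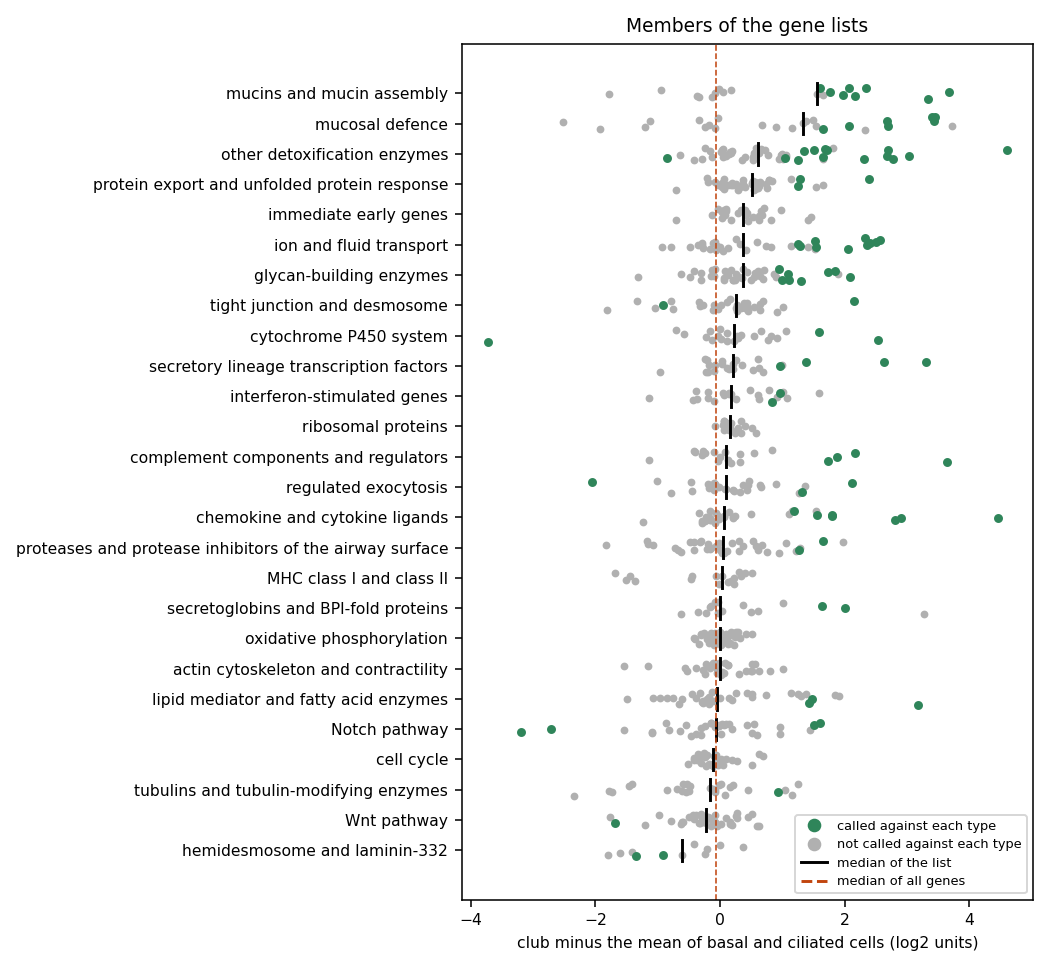
Difference between club cells and the mean of basal and ciliated cells in log2 units (horizontal axis) for each measured member of 26 gene lists (rows), with the list's median as a black bar and the median of all genes, -0.0632, as a dashed line. Green points are members called by limma against each type in the same direction. The medians run from 1.56 for mucins to -0.609 for hemidesmosome genes, whose mean levels were alike in club and ciliated arrays and higher in basal arrays.

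Most detoxification genes called against each type were club-high, as were 80.0 percent of all genes so called, and 2 went the other way. Over all genes, 2.26 percent were called higher and 0.566 percent lower against each type, and 5.54 percent higher than the mean. Of 50 enzymes outside the P450 system, 13 were called higher against each type and 1 lower, with a median of 0.617, and 26 were called higher than the mean. Pon1, an esterase of lipid peroxides and organophosphates, stood at 12.68 and 12.66 in club arrays against 9.36 to 10.27. The monooxygenase Fmo1 and the microsomal glutathione transferase Mgst1, named after their values were seen, stood at 10.65 and 10.48 against 7.43 to 8.40 and at 12.07 and 12.10 against 9.63 to 10.00. Of 23 P450 system genes, 2 were called higher against each type, Cyp4a12b (13.61 and 13.58 against 10.49 to 11.65) and the oxysterol hydroxylase Cyp39a1 (10.74 and 10.66 against 8.90 to 9.25). Cyp4a12b has a near-identical neighbour, Cyp4a12a, and the probes could read both. Cyp2s1, a P450 found mainly outside the liver, stood at 8.27 and 8.50 in club arrays, 13.16 and 12.98 in ciliated arrays and 10.98 and 11.31 in basal arrays. Fmo5, named after its values were seen, was the club-low enzyme of the first list, at 8.26 and 8.53 against 9.12 to 9.39, and its call against the mean was lost without club replicate 1 (adjusted p = 0.093). Cyp2s1 was lowest in club cells by 6.80-fold against the nearer type (-3.73 ± 0.16 against the mean, limma adjusted p = 0.00022).

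Channels and transporters of salt and fluid included several club-high genes. Of 34, 10 were called higher against each type, beside 2.26 percent of all genes, with a list median of 0.367. The bicarbonate cotransporter Slc4a4 stood at 10.14 and 10.04 in club arrays against 7.26 to 7.96, and Slc4a5 of the same family, among the 20 widest, at 9.81 and 10.35 against 5.55 to 7.28. The exchanger Slc9a4 stood at 9.21 and 9.02 against 6.41 to 7.03. Slc4a4 and Slc9a4 were among the 12 of the 34 with both club arrays above all others, beside 10.8 percent of all genes. Kcne3, a potassium channel subunit, and Slc12a2, which loads chloride into the cell, were higher by 5.35-fold and 4.06-fold against the nearer type, each with basal arrays over 1 log2 unit apart. The Slc12a2 call against the mean (adjusted p = 0.0067) was lost without club replicate 1 (0.056), and the Kcne3 call (0.01) without ciliated replicate 2 (0.05), club replicate 1 (0.075) or club replicate 2 (0.052). Named after their values were seen, the sodium channel subunits Scnn1b (8.45 and 8.59 against 6.01 to 6.78) and Scnn1g (8.17 and 8.38 against 6.57 to 7.08) and the calcium-activated chloride channel Ano1 (11.42 and 11.40 against 7.81 to 10.12) were also club-high. Cftr, the cyclic AMP-regulated chloride channel, did not pass (0.26 ± 0.18, adjusted p = 0.44), at 5.63 and 5.31 in club arrays and 4.94 to 5.66 in the others.

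The machinery that makes secreted glycoproteins was described by 3 lists, beside 5.54 percent of all genes called higher than the mean and 2.26 percent called higher against each type. Of 45 genes of protein export and the unfolded protein response, 17 had both club arrays above all others and none had both below (10.8 and 15.2 percent of all genes), while 12 were called higher than the mean and 3 against each type, with a median of 0.516. Sec23a of the vesicle coat, named after its values were seen, stood at 9.62 and 9.33 in club arrays against 7.95 to 8.51. Kdelr3, a receptor that returns proteins to the endoplasmic reticulum, stood at 9.76 and 9.68 against 6.67 to 7.77, and Srpr, the receptor of the signal recognition particle, at 10.30 and 10.90 against 9.11 to 9.45. Of 42 glycan-building enzymes, 12 were called higher and 2 lower than the mean and 8 higher against each type, with a median of 0.361. They included Galnt5, which starts mucin-type glycans (9.06 and 9.02 against 6.52 to 7.16), the fucosyltransferase Fut2 (8.61 and 9.09 against 6.56 to 7.47) and the sialyltransferase St6gal1 (7.38 and 8.10 against 5.87 to 6.16). Of 29 regulated exocytosis genes, the Rab27 effector Sytl2 (9.76 and 9.33 against 6.49 to 8.21) and the vesicle-priming Cadps2 (8.89 and 8.78 against 6.95 to 8.09) were called higher. In the same list Marcks, a kinase substrate that links mucin granules to actin, was lower in club cells, at 5.78 and 5.83 against 7.15 to 8.75 (-2.05 ± 0.21, adjusted p = 0.001).

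Beside 2.26 percent of all genes, 4 of 25 transcription factors of the secretory lineage were called higher against each type. Beside Elf5 they were Creb3l1 and Creb3l2, membrane-bound factors that raise secretory capacity, and Foxa3, a forkhead factor of goblet cells named after its values were seen. Creb3l1 stood at 9.99 and 10.60 in club, 8.14 and 8.11 in ciliated and at most 7.43 in basal arrays. Creb3l2 stood at 10.04 and 10.44 in club, 8.60 and 8.36 in ciliated and 9.25 and 9.25 in basal arrays. Both were thus highest in club cells, with the order of the other types exchanged. Foxa3 stood at 6.99 and 6.98 in club arrays against 5.74 to 6.18, and its call against the mean (adjusted p = 0.0052) was lost without club replicate 1 (0.051).

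In the Notch pathway, of 35 genes, 2 receptors were called higher and a ligand and a Fringe enzyme lower in club cells against each type. The shares of all genes were 2.26 percent higher and 0.566 percent lower. Notch2 stood at 11.17 and 11.33 in club, 10.01 and 9.94 in ciliated and 9.31 and 9.36 in basal arrays, and Notch3, named after its values were seen, at 8.88 and 9.11 against 7.32 to 7.59. The ligand Jag2 stood at 7.10 and 6.52 in club, 8.14 and 7.87 in ciliated and 11.02 and 11.06 in basal arrays. Lfng, a Fringe enzyme that extends sugars on Notch receptors and so tunes their response to ligands, stood at 7.09 and 7.16 in club, 11.40 and 11.61 in ciliated and 8.79 and 9.48 in basal arrays. The club arrays did not overlap with the others in any of the 4, which were chosen by their calls, so that this adds no support. Of the 35 genes, 6 had both club arrays above all others and 8 below, beside 10.8 and 15.2 percent of all genes. Jag2 and Lfng differed in which other type was the highest. Against the mean, the differences were 1.60 ± 0.13 for Notch2, 1.52 ± 0.15 for Notch3, -2.71 ± 0.19 for Jag2 and -3.19 ± 0.21 for Lfng (limma adjusted p at most 0.00089, the value of Notch3). Notch1, also named after its values were seen, was basal-high and close between club (8.60 and 8.72) and ciliated arrays (8.99 and 8.85), as was the ligand Dll1 (6.39 and 6.61 in club, 6.59 and 6.69 in ciliated, 9.92 and 8.95 in basal arrays). The Notch targets Hes1, Hey1 and Nrarp, named after their values were seen, did not pass against the mean (adjusted p = 0.1, 0.13 and 0.055), and Hes1 was about as high in ciliated arrays (11.56 and 11.84) as in club arrays (11.20 and 11.69), which overlapped. The list's median was -0.0704 and turned to 0.0118 when arrays were centred.

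The window at the start of Lfng, at chr5:140607091-140607390 on the plus strand of GRCm38.p6 (RefSeq), is shown because Lfng had the widest gap of the Notch genes and TGGGAA is the core bound by RBPJ, the DNA-binding partner of cleaved Notch. Capitals mark TGGGAA on either strand.
Lfng: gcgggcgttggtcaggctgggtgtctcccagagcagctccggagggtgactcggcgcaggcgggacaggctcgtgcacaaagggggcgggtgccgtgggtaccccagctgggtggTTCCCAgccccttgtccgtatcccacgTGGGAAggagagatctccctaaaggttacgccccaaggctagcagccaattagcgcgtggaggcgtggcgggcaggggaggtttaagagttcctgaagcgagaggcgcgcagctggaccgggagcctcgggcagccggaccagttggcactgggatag
It held TGGGAA on the reverse strand 135 bases before the start and on the forward strand 108 bases before it. Of all windows, 24.2 percent held it, beside 18.1 percent of the club-high and 22.9 percent of the club-low windows and 5 of the 16 widest club-low genes with a window.

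**Figure D4:**
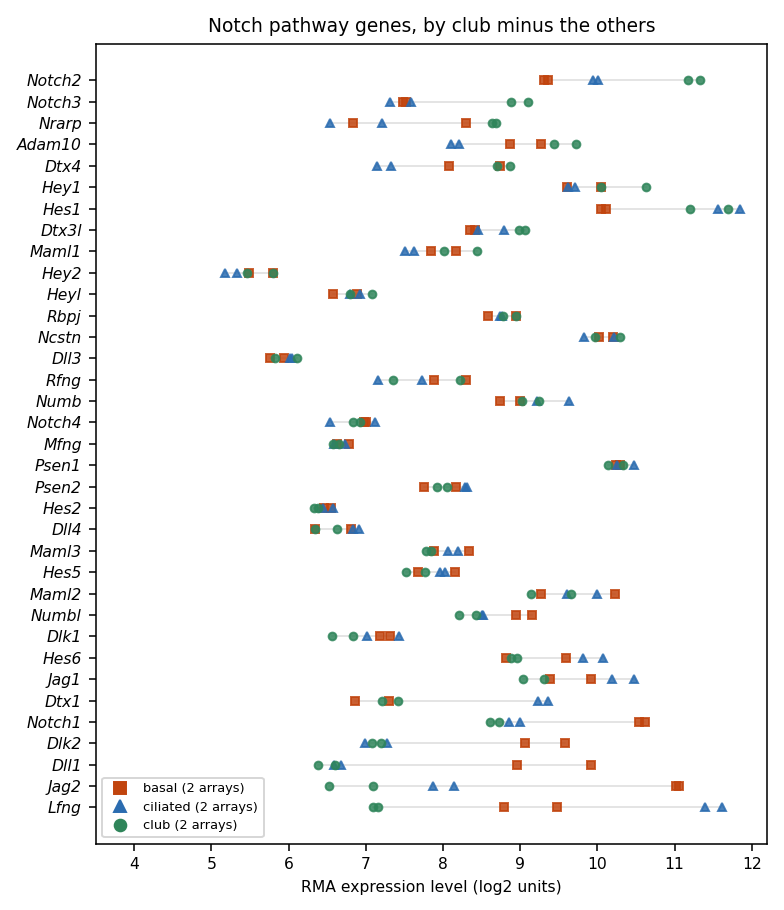
RMA expression level in log2 units (horizontal axis) of the 35 Notch pathway genes, ordered from the highest to the lowest difference between club cells and the mean of the others, with 1 point per array (green circles club, orange squares basal, blue triangles ciliated). Club points lie clear to the right for Notch2 (11.17 and 11.33) and Notch3 and clear to the left for Jag2 and Lfng (7.09 and 7.16), while most other rows overlap or nearly so.

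Counted as called against each type, the genes shared by basal and ciliated cells and low in club cells were fewer and had narrower gaps. By the non-overlap rule alone they were more, 3094 against 2194. The 115 had a median difference from the nearer type of -1.03, against 1.19 for the 459 club-high genes. Their basal and ciliated means also lay further apart, by a median of 0.544 log2 units, against 0.296 in the club-high genes and 0.236 in all genes. No gene had all club arrays below the lower quartile of the arrays and all others above the median, while 4 had the reverse pattern: Fut9 and, named after their values were seen, Anxa10, Cenpu and Zfp9.

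Among the 20 club-low genes with the widest gaps were Pdk4, Pltp and Clca3b. Pdk4, a kinase that shuts off pyruvate dehydrogenase, stood at 7.95 and 8.62 in club, 12.46 and 13.05 in ciliated and 11.45 and 10.33 in basal arrays. Pltp, which transfers phospholipids between lipoproteins, stood at 7.48 and 8.39 in club, 12.80 and 12.99 in ciliated and 10.46 and 10.55 in basal arrays. Both were highest in ciliated cells and still well above club cells in basal cells, by 6.10-fold and 5.93-fold. Clca3b, of the family of calcium-activated chloride channel regulators, had the widest gap of all, 7.46-fold, at 8.69 and 8.19 in club arrays and between 11.01 and 11.85 in the other 4. The limma adjusted p against the mean was 0.0009 for Pdk4, 0.00031 for Pltp and 0.00056 for Clca3b. Clca3b has close paralogs, and whether its probes keep them apart was not tested.

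Of the same 20 genes, 7 have known roles with actin, in adhesion or at the membrane, a grouping made after their values were seen and not tested. Fermt1, the integrin activator kindlin-1, stood at 6.21 and 6.14 in club arrays, 8.66 and 8.83 in ciliated and 9.32 and 8.89 in basal arrays. Gsn, which severs actin filaments, stood at 9.54 and 9.87 in club arrays against 11.16 to 12.17. Ablim3, an actin-binding LIM protein, stood at 5.74 and 5.71 against 7.78 to 8.32, with basal and ciliated arrays intermixed. The WASP partner Wipf1 (6.31 and 6.04 against 7.96 to 8.59), the hyaluronan receptor Layn (6.41 and 6.46 against 7.69 to 8.21), the membrane-binding Anxa8 (9.80 and 9.64 against 11.19 to 11.62) and the glycolipid-anchored cadherin Cdh13 (7.46 and 7.21 against 8.83 to 10.41) were the others. The limma adjusted p against the mean was at most 0.0013 in these 7 genes, the value of Layn. The list of 30 actin genes, which holds other members, had a median of -0.00576 that turned positive when arrays were centred, and limma called 1 of them against the mean.

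Of 11 hemidesmosome and laminin-332 genes, 5 had both club arrays below all others (15.2 percent of all genes did). Against each type, 2 were called lower (0.566 percent of all genes were). These were the laminin chain Lama3, at 6.02 and 6.05 in club, 6.78 and 6.89 in ciliated and 8.06 and 7.78 in basal arrays, and, named after its values were seen, the integrin chain Itga3, at 9.52 and 9.93 against 10.44 to 10.84. The call of Itga3 against the mean (adjusted p = 0.01) was lost without club replicate 1 (0.097). The partner laminin chain Lamb3 was basal-high only, at 11.30 and 11.26 in basal, 7.19 and 7.37 in ciliated and 7.53 and 7.43 in club arrays. The mean level of the 11 genes was 10.15 and 9.95 in basal, 8.59 and 8.65 in ciliated and 8.52 and 8.66 in club arrays. Among 31 tight junction and desmosome genes, Cldn10, a claudin of ion-permeable junctions, was called higher (10.26 and 10.24 against 7.12 to 8.68) and, named after its values were seen, the desmosomal cadherin Dsg2 lower (7.78 and 7.78 against 8.51 to 8.91). Over all genes, 2.26 percent were called higher and 0.566 percent lower against each type.

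A further 6 of the 20 have known roles in signalling, likewise grouped after their values were seen and not tested. Gfra1, the co-receptor of the neurotrophic factor GDNF, stood at 7.69 and 7.68 in club, 10.20 and 10.52 in ciliated and 11.18 and 10.97 in basal arrays. The neurotrophin Ntf3 stood at 6.38 and 6.36 in club, 8.35 and 8.29 in ciliated and 9.09 and 9.43 in basal arrays. Both were highest in basal cells. The co-receptor Tgfbr3 of transforming growth factor beta (6.88 and 7.08 against 8.32 to 9.86), the calcium sensor Ncs1 (5.11 and 5.59 against 7.09 to 9.62), the G protein regulator Rgs12 (6.88 and 6.97 against 8.45 to 9.17) and Tulp3, which brings receptors into cilia (7.62 and 7.72 against 9.02 to 10.31), were low in club cells too (limma adjusted p at most 0.001 against the mean in all 6). The glycan enzymes Hs6st2, which sulfates heparan sulfate (4.83 and 4.91 against 6.66 to 7.26), and St3gal2, a sialyltransferase (6.62 and 6.63 against 8.16 to 8.90), were also among the 20. Of 42 Wnt pathway genes, 13 had both club arrays below all others and 1, the receptor Fzd3, above (15.2 and 10.8 percent of all genes), with a median of -0.225. Only the ligand Wnt4 was called against each type, at 8.04 and 7.88 in club, 8.89 and 8.90 in ciliated and 10.17 and 10.64 in basal arrays. The median level over all genes was lower in the club arrays (6.823 and 6.792) than in the other 4 (6.863 to 6.917). Of 23 leukocyte markers, 8 had both club arrays below all others and 2 above, and of 9 chondrocyte markers 4 and none. The part of this offset in the Wnt counts was not tested.

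Other lists gave no gene called against each type. They were the 42 genes of oxidative phosphorylation (median -0.00383), the 21 measured ribosomal protein genes (0.163), the 29 cell cycle genes (-0.106), the 28 immediate early genes (0.373) and the 17 MHC genes (0.0354). In the first 3 of these lists limma called no gene against the mean either, while 1, 3 and 4 genes had an unadjusted p under 0.05. Of 27 tubulins and tubulin-modifying enzymes, 9 were called lower and 4 higher than the mean, beside 6.29 and 5.54 percent of all genes. Against each type none was called lower and 1, the tubulin polyglutamylase Ttll7, higher, beside 0.566 and 2.26 percent of all genes. The Ttll7 call against the mean was lost without club replicate 1 (adjusted p = 0.093). Among the 9 lower genes, Tuba1a stood at 13.23 and 12.49 in ciliated, 8.42 and 8.67 in club and 8.65 and 9.22 in basal arrays. Of 23 interferon-stimulated genes, 7 were called higher and 1 lower than the mean. Against each type, the antiviral Mx1 and the RNA sensor Ifih1 were called higher, beside 2.26 percent of all genes. Their calls against the mean were lost without either club replicate (adjusted p of 0.062 and 0.16 for Mx1, 0.18 and 0.062 for Ifih1) and without ciliated replicate 1 for Mx1 (0.051) or ciliated replicate 2 for Ifih1 (0.079). Of 40 surface proteases and inhibitors, 9 were called higher and 4 lower than the mean. The protease inhibitors Slpi (9.24 and 8.45 against 6.95 to 7.58) and Spink5 were called higher against each type, beside the same 2.26 percent. Ttll7, Mx1, Ifih1, Spink5 and the Wnt receptor Fzd3 are named after their values were seen.

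Markers of the compared types were low in club cells mainly against the mean. Of all genes, 6.29 percent were called lower than the mean and 0.566 percent lower against each type. Of 20 ciliated markers 19 were called lower in club cells than the mean and none against each type, and of 16 basal markers 11 and 1. The 1 was Cav1, the caveolar coat protein, at 8.39 and 7.93 in club, 9.50 and 9.76 in ciliated and 11.15 and 12.01 in basal arrays. The basal keratin Krt15, named after its values were seen, stood at 10.79 and 10.92 in club arrays, between basal (11.92 and 12.37) and ciliated arrays (a mean of 8.95).

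Markers of other cells moved with some club-high groups. Their counts stand beside 5.54 percent of all genes called higher than the mean and 2.26 percent called higher against each type. Of 10 tuft cell markers, 3 were called higher than the mean and 1, Alox5ap, against each type, with list means of 7.61 and 7.19 in the club arrays and 6.70 to 7.03 in the others. The Alox5ap call against the mean was lost without ciliated replicate 1 (adjusted p = 0.061), club replicate 1 (0.05) or club replicate 2 (0.12). That of Dclk1 was lost without either club array (0.095 and 0.075), and that of Trpm5 without club replicate 1 (0.26) or either ciliated array (0.12 and 0.074). Gnat3, the taste G protein of tuft cells, was at 9.18 in club replicate 1 but at 6.87 in club replicate 2, against 5.91 to 7.48, and the list's median of 0.417 became 0.111 without club replicate 1. The part of such cells in the values of Tas2r135 and Alox15 was not tested. Of 10 markers of gland cells, 4 were called higher than the mean and 1, Bpifb5, against each type, with list means of 7.50 and 7.63 in club and 6.53 to 7.14 in other arrays. Dmbt1, Ltf and Lpo are on the defence list too, and the part of gland cells in the mucus and defence genes was not tested. Of 10 alveolar type 2 markers, the surfactant protein gene Sftpb (10.39 and 10.98 against 7.85 to 8.39) and the phosphate transporter Slc34a2 (7.83 and 9.05 against 5.86 to 6.36) were called higher against each type. Sftpc, the defining alveolar type 2 gene, was at 5.27 and 5.47 in club arrays, below the lower quartile of those arrays, and at 9.17 and 8.36 in ciliated arrays. The lists for leukocytes, erythroid cells, chondrocytes, fibroblasts, endothelium, ionocytes, myoepithelium and neuroendocrine cells had no gene called against each type. Against the mean, 4 of 23 leukocyte markers were called lower and 1 higher, and 2 of 12 fibroblast markers lower. That compares with 6.29 percent of all genes lower and 5.54 percent higher. The rest of these lists had no gene called against the mean. Pecam1, an endothelial gene, stood at 8.44 in club replicate 1 alone, against 6.23 to 6.73 in the other 5 arrays.

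At the edge of the non-overlap rule the values show how small a step decides membership. Just inside on the upper side was Chd6, a chromatin remodeller, at 9.15 and 9.28 in club arrays and 8.28 to 9.15 in the others, with Rnaseh2a of the RNase H2 complex next to it. Just outside was the actin-binding Pfn2, at 9.21 and 9.44 in club arrays against a highest other value of 9.21, with the olfactory receptor Olfr617 beside it. On the lower side the olfactory receptors Olfr632 (5.86 and 5.77 in club arrays, 5.86 to 6.16 elsewhere) and Olfr309 were just inside, and the ciliary dynein Dnah10 (6.53 and 6.77, with basal arrays at 6.77 and 6.95) and Ldoc1 just outside. Of the genes that followed the contrast, 3731 of 5288 were not called by limma against the mean.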

How the data were processed

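RNA of basal, ciliated and club cells was measured on 6 arrays, 2 per type. Per the labels' protocols, Trizol extracts were biotin-labelled and hybridised by Affymetrix procedures. The submitters' processing notes name RMA, which corrects background, quantile-normalizes the arrays and summarises probes. Neither the platform nor the build is given in the sources used here. The values used are the log2 values that the authors deposited, 1 per gene symbol and array. They matched a probe set of the deposited matrix, within 1e-06 log2 units, in 100.0 percent of cases. A line without a symbol, a deposited table of 50 genes and 18 columns of another study were not used.

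Group means of 20315 genes were fitted with limma 3.58.1 in R 4.3.3, with empirical Bayes moderation and no filter or further normalization. The contrasts were club minus the mean of the basal and ciliated means, club minus basal and club minus ciliated. The threshold was 0.05 on p-values adjusted over all genes by Benjamini-Hochberg. All types share an estimate of the spread, while basal arrays differed by over 1 log2 unit in 613 genes, club arrays in 193 and ciliated arrays in 100. Differences are given as log2 difference ± standard error. The number of arrays limits the precision. The script was tested on simulated data.

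Genes named are, first, the 20 in each direction with the widest gap to the nearer type. These were taken among genes that followed the contrast and were called against each type. Also named are the 4 members of each of 41 lists with the largest difference and the markers Pigr, Muc5b and Cxcl15. The sort antigens and genes at the edge of the non-overlap rule were added. Unnamed gene models were passed over, and other genes are said to be named after their values were seen. The contrast, the members and the lists were chosen with earlier results of these data known. Of the list entries, 950 of 993 were measured. Of the table's symbols, 19535 were current and 605 were synonyms of 1 gene in RefSeq's GRCm38.p6 gene table. Alternatives were other scalings, a filter on dim genes, a replicate block, trended and robust moderation, basal and ciliated arrays as 1 group, a margin for the non-overlap rule, probe sets in place of genes, and leaving out each array. The values of 1 complement gene counted among those called are not reported here.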

Additional observations from a re-analysis of the deposited data

How the results depend on the processing

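Treating basal and ciliated arrays as 1 group, which by construction adds their difference to the spread, left 143 genes called against the mean (125 higher, 18 lower). Of the 235 named genes, 124 lost their call under it. Genes following the contrast numbered 2690 among the genes above the median mean, where fewer genes were tested. Of these 2690, 1579 were higher and 1111 lower, so that the balance turned, from 41.5 percent higher in all genes to 58.7 percent. Those following numbered 230 (194 higher, 36 lower) with a margin of 1 log2 unit, and 8203 (3715 higher) over the 35556 probe sets. After centring each array, 1754 followed downward. Leaving out 1 array at a time moved the genes called against the mean between 1148 and 3534 (525 to 1734 higher, 623 to 1800 lower), those following between 6060 and 9283 (2489 to 3722 higher, 3571 to 5561 lower), where fewer arrays make the rule easier to meet, and those called against each type between 286 and 902 (228 to 698 higher, 40 to 204 lower). The causes of the other shifts were not tested. With club replicate 1 left out 33 named genes lost the call against the mean, and with club replicate 2 left out 25. With the replicate number as a block, 3009 genes were called against the mean (1506 higher, 1503 lower) and 748 against each type (599 higher, 149 lower). Same-numbered arrays were compared by the correlation, across genes, of their deviations from the mean of their own type. This correlation was 0.0521 for basal and ciliated, 0.265 for basal and club and 0.26 for ciliated and club arrays. The replicate numbers were not taken to pair the samples. The median of the tight junction list was 0.264 and turned to -0.0182 without club replicate 2, and that of the ionocyte markers was 0.22 and turned to -0.101 without club replicate 1. With 2 arrays per type and no detection calls, no level could be called absent.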
